A study of Homo sapiens with 10 samples.

Results

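The 39 genes described here encode the machinery that copies DNA and the enzymes that make its nucleotides, together with the transcription factor E2F1. A gene was taken as measured when a probe set annotated with its symbol alone was in the table used here, and 37 of the 39 were, on 53 of the 12547 probe sets that carry 1 symbol and stand for 8904 genes in all. MCM4 and RFC1 were not analysed here. RNA came from T47D cells, a luminal breast cancer line, and was hybridised to 10 U133 Plus 2 arrays (Affymetrix), with 5 groups of 2 arrays. PR-A K388R cells, which stably express a progesterone receptor A whose SUMO acceptor lysine is mutated to arginine, were given 10 nM of the synthetic progestin R5020 for 24 h or the ethanol vehicle. WT PR-A cells, which stably express the unmutated receptor, were given the same 2 treatments. T47D-Y cells, the PR-negative line from which both others were made by transfection, were given vehicle, and their response to R5020 was not analysed here. Whether each transfected line is 1 clone is not given in the sources used here, so the receptor cannot be told apart from other differences between the lines. The labels do not say that the 2 replicates of a group were separate cultures, so the p-values reflect the spread between these arrays, which may be technical. Values are log2 signals, on which a difference of 1 is a doubling, and they are compared between arrays for the same probe set only.

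During S phase the genome is copied from origins that were prepared in G1. The origin recognition complex (ORC1, ORC2, ORC4, ORC5) and CDC6 load the MCM helicase, the kinase CDC7 together with CDC45, GINS1 and TOPBP1 turns it into a moving fork, and primase with DNA polymerase alpha starts each new strand. The clamp loader RFC places PCNA, the sliding clamp that holds the polymerases on DNA, RPA covers the exposed single strands, and FEN1 and LIG1 finish and join the lagging strand. Ribonucleotide reductase (RRM1, RRM2), thymidine kinase TK1, thymidylate synthase TYMS and thymidylate kinase DTYMK supply the deoxynucleotides, and E2F factors drive the transcription of many of these genes at the G1/S transition. In bulk RNA, more cells in S phase and more of these transcripts per cell cannot be told apart.

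All 37 genes lay above the lower quartile of every array on all 10 arrays, with a lowest value of 6.50 against lower quartiles of 3.28 to 3.39. Over the 8904 probe sets that each stand for a gene, arrays of a group correlated at 0.996 to 0.997 and arrays of different groups at 0.974 to 0.993. The luminal label was borne out by its markers, of which 8 of 10 were measured with array means of 10.1 to 11.1. The array medians were 4.59 to 4.69. The 6 measured fibroblast markers had array means of 4.58 to 5.11, which reach above these medians. The 4 measured leukocyte markers had array means of 4.33 to 4.54 and the 4 endothelial markers 3.90 to 4.22, under them. Single markers differed from these means. Above the array median on all 10 arrays were 7 of the 8 luminal, 3 of the 6 fibroblast, 2 of the 4 leukocyte and 1 of the 4 endothelial markers. The basal keratin KRT5, the measured 1 of 4 basal markers, lay between 3.94 and 4.96.

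The promoters of the genes that passed the test for R5020 in PR-A K388R cells are shown because the description of the data turns on them. RRM2 was taken by rule, as the one gene of the set that passed the test of the difference of the responses, and CDC45 and E2F1 were chosen after their values were seen. The windows are the RefSeq sequences (GRCh38.p14) from 250 bases before to 50 bases after the start site, at chr2:10122489-10122788 (plus strand) for RRM2, chr22:19479670-19479969 (plus strand) for CDC45 and chr20:33686336-33686635 (minus strand) for E2F1. Capitals mark the CCAAT box (CCAAT on either strand) and the E2F site (TTTCCCGC, TTTCGCGC, TTTGCCGC or TTTGGCGC on either strand).
RRM2: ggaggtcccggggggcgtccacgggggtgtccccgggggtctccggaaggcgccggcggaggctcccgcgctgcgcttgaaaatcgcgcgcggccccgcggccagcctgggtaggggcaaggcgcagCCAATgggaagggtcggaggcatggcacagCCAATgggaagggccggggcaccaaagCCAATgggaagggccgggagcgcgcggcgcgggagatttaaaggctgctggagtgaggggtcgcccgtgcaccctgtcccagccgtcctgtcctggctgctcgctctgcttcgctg
CDC45: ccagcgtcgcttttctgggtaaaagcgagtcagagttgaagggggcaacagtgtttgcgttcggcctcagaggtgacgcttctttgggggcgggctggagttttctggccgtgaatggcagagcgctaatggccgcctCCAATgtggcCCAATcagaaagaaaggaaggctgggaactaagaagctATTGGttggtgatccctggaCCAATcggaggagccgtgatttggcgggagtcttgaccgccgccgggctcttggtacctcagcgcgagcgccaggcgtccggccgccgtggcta
E2F1: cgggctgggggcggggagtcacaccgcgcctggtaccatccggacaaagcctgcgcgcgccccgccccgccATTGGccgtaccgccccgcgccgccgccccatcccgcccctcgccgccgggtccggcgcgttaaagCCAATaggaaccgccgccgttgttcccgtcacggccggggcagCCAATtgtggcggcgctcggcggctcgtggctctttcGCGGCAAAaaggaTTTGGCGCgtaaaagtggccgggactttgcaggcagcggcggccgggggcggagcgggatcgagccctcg
The RRM2 window held 3 CCAAT boxes, which start 123, 93 and 66 bases before the start site, and the CDC45 window held 4, which start 112, 102, 64 and 44 bases before it. Neither held the E2F letters searched. Other spellings of an E2F site were not searched, so these windows are not shown to lack one. The E2F1 window held 2 E2F matches, 33 and 20 bases before the start site, and 3 CCAAT boxes. Promoters were listed for 35 of the 37 genes. An E2F match was in 14 of them, against 908 of all 27305 promoter windows (3.33%), and a CCAAT box in 18 (51.4%) against 35.7% of all. The 27305 windows were not limited to the genes measured here. The progesterone response element half-site TGTTCT was in the FEN1 and POLD1 windows only, 5.71% against 14.9% of all. A match describes the letters in the window and is not evidence of binding.

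In PR-A K388R cells R5020 raised RRM2, CDC45 and E2F1, and 36 of the 37 genes had a positive change. A gene passed the test at a Benjamini-Hochberg adjusted p under 0.05 in limma, taken over all probe sets, together with a fold of at least 1.5. By that rule 3 of the 37 were higher with R5020, where 1.25% of all genes were, and 0 were lower, where 0.416% were. At an unadjusted p under 0.05, 16 of the 37 were higher, where 7.41% of all genes were, and 0 lower, where 4.92% were. The median change of the 37 was 0.26 on the log2 scale (range -0.10 to 0.90), against 0.01 over all genes, of which 51.7% were positive. Both R5020 arrays lay above both vehicle arrays for 30 of the 37 genes (24.6% of all genes) and below them for 0 (19.7%).

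RRM2, the small subunit of ribonucleotide reductase, read 11.03 and 11.16 on the R5020 arrays of PR-A K388R cells, against 10.23 and 10.17 on the vehicle arrays. It rose by 0.90 ± 0.14 (SE, 2 arrays each), 1.87-fold, with a limma adjusted p of 0.013. CDC45, a subunit of the active helicase, read 8.35 and 8.52 with R5020 and 7.69 and 7.85 with vehicle. It rose by 0.67 ± 0.13 (SE), 1.59-fold, with an adjusted p of 0.039. E2F1 read 8.75 and 8.74 with R5020 and 8.18 and 8.03 with vehicle, and its rise of 0.64 ± 0.13 (SE), 1.56-fold, had an adjusted p of 0.046. In all 3 genes the R5020 arrays stood clear of the vehicle arrays. The second E2F1 probe set had a difference of 0.63 ± 0.14 (SE) and did not pass (adjusted p = 0.067). Leaving out any of the 4 PR-A K388R arrays ended the RRM2 call, at adjusted p of 0.089, 0.10, 0.080 and 0.12, and every array left out in turn ended that of CDC45 (adjusted p 0.053 to 0.29). The E2F1 call was lost without any array other than the 2 of WT PR-A with R5020 (0.070 to 0.29), and unmoderated contrasts ended all 3 calls (0.21 to 0.26).

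**Figure D1:**
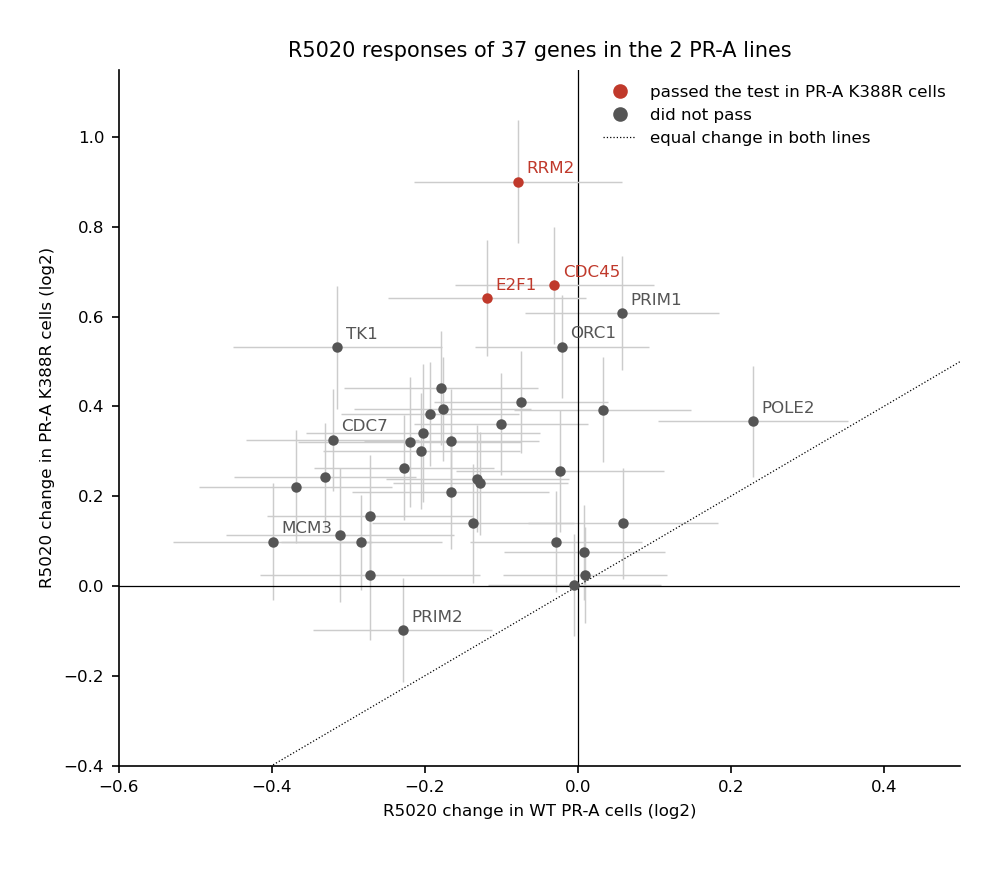
R5020 change (log2) of each of the 37 genes in PR-A K388R cells (vertical axis) against WT PR-A cells (horizontal axis), with bars of 1 SE; red points passed the test in PR-A K388R cells. All 37 points lie above the dotted line of equal change, 36 lie above 0 on the vertical axis and 31 lie below 0 on the horizontal axis.

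In WT PR-A cells 0 of the 37 genes passed the test with R5020 in either direction, where 4.40% of all genes were higher and 3.47% lower. At an unadjusted p under 0.05, 6 of the 37 were lower, where 11.3% of all genes were, and 0 higher, where 10.3% were, and unmoderated analysis of variance contrasts called 0. The median change was -0.17 (range -0.40 to 0.23), against -0.02 over all genes, and 31 of the 37 values were negative, against 54.0% of all genes. Both R5020 arrays lay below both vehicle arrays for 20 of the 37 (28.9% of all genes) and above them for POLD2 and POLE2, 2 genes (24.6%). The R5020 replicate 1 array decided much of the shift of the median. The mean of the 37 genes was 8.99 on it and 9.13 on replicate 2, against 9.25 and 9.16 on the vehicle arrays. Without R5020 replicate 1 the median of the 37 was -0.05 with 26 negative values, close to the -0.04 over all genes. Without vehicle replicate 1 it was -0.08 with 28, against -0.02 over all genes.

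The responses of the 2 lines were set against each other by the difference of responses, the R5020 change in PR-A K388R cells minus that in WT PR-A cells. All 37 differences were positive, against 54.2% of all genes, with a median of 0.48 (range 0.01 to 0.98) against 0.02. By the test 1 of the 37 was higher, where 0.719% of all genes were, and 0 were lower, where 1.16% were. At an unadjusted p under 0.05, 22 were higher, where 7.77% of all genes were, and 0 lower, where 5.96% were. The gene that passed was RRM2, whose difference was 0.98 ± 0.19 (SE; 95% interval 0.55 to 1.41), 1.97-fold, with an adjusted p of 0.043. RRM2 read 10.59 and 10.83 on the R5020 arrays of WT PR-A cells and 10.81 and 10.77 on the vehicle arrays, which overlap. This call was lost, at adjusted p of 0.10 to 0.17, without any single array of the 2 PR-A lines other than WT PR-A R5020 replicate 2, at 0.054 with arrays centred on their medians, and at 0.25 with unmoderated contrasts. Next in order were TK1 (0.85 ± 0.19, adjusted p = 0.070), E2F1 (0.76 ± 0.18, adjusted p = 0.087), CDC7 (0.65 ± 0.16, adjusted p = 0.095) and CDC45 (0.70 ± 0.18, adjusted p = 0.11), none of which passed. A fit without the replicate block called these 4 and RRM2, 5 in all.

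Positive in the PR-A K388R line and negative in the WT PR-A line were 30 of the 37 genes, against 23.9% of all genes. For 17 of them the arrays did not overlap in either line, against 5.31% of all genes. These were CDC6, MCM2, MCM3, CDC7, GINS1, TOPBP1, POLA1, POLD1, PCNA, RFC2, RFC5, RPA1, LIG1, RRM1, TK1, TYMS and DTYMK, and none of their R5020 changes passed the test in either line. The mean of the 37 genes was 9.44 and 9.46 with R5020 and 9.17 and 9.14 with vehicle in PR-A K388R cells, 8.99 and 9.13 with R5020 and 9.25 and 9.16 with vehicle in WT PR-A cells. In T47D-Y cells it was 9.17 and 9.12. R5020-treated PR-A K388R cells thus stood above all other arrays and the 6 vehicle arrays lay between 9.12 and 9.25. These cells had the highest group mean in 24 of the 37 genes (25.8% of all genes), and R5020-treated WT PR-A cells had the lowest in 20 (27.9%).

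**Figure D2:**
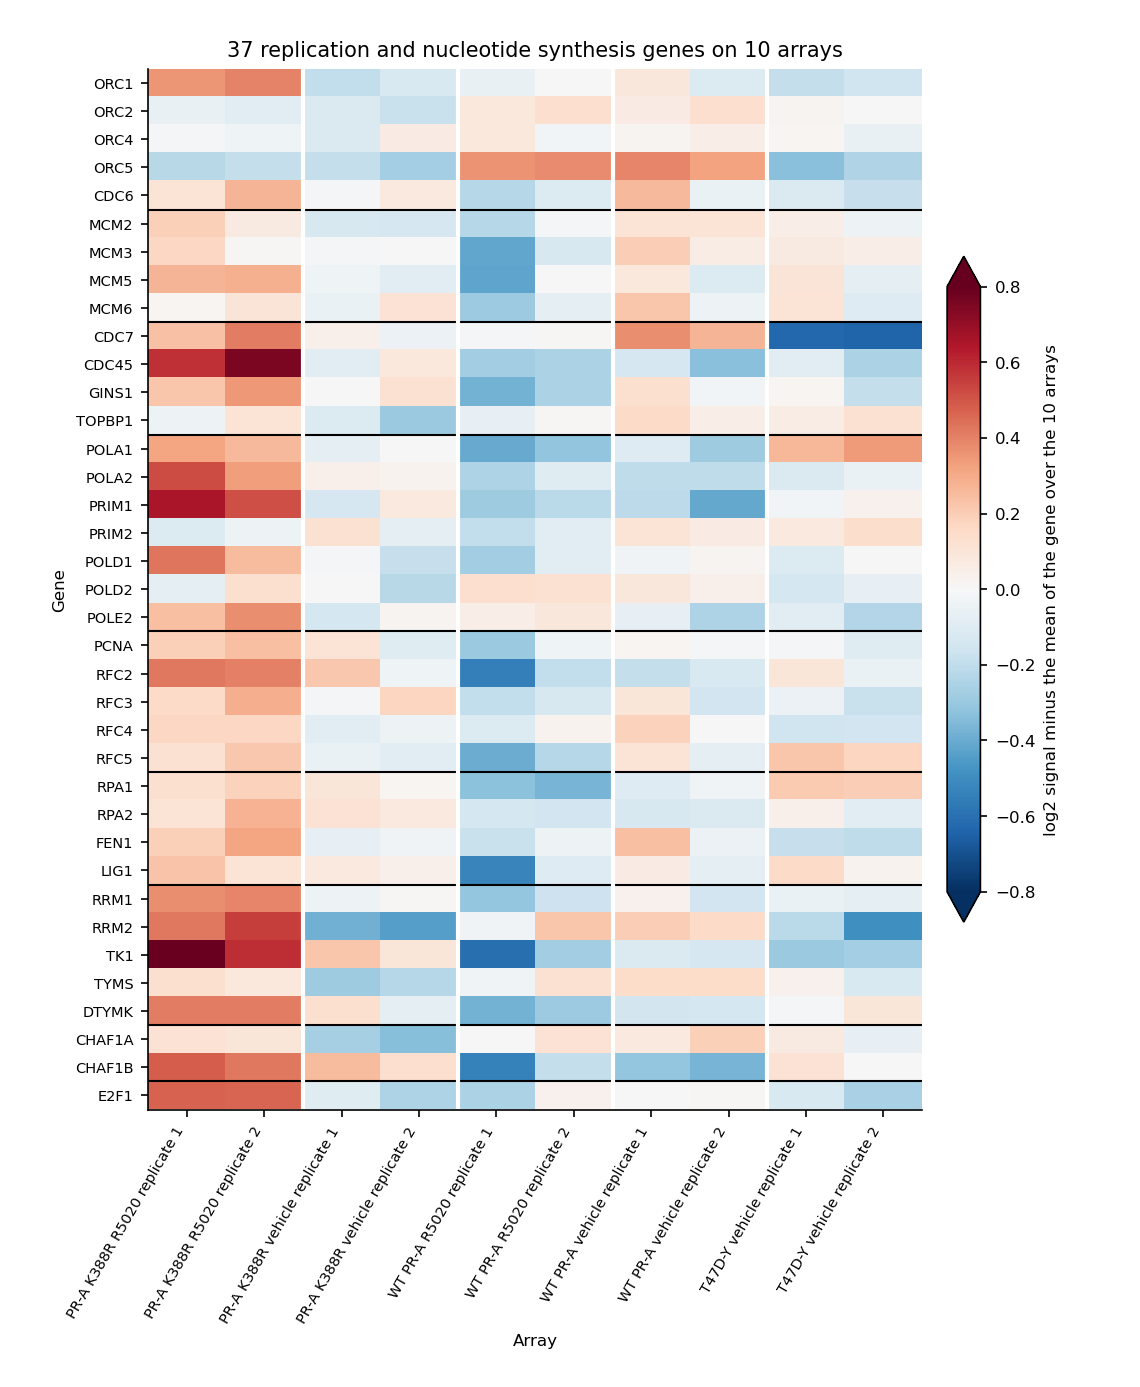
log2 signal of each of the 37 genes (rows, in blocks by role) on each of the 10 arrays (columns), minus the mean of the gene over the 10 arrays; red is above it and blue below it. The 2 R5020 arrays of PR-A K388R cells are mostly red, and WT PR-A R5020 replicate 1 is bluer than replicate 2, with means over the 37 genes of 8.99 and 9.13.

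Among the origin recognition and loading genes 0 of 5 passed a test with R5020 in either line. Of all genes, R5020 raised 1.25% and lowered 0.416% by this test in the PR-A K388R line. For the WT PR-A line these shares were 4.40% and 3.47%. At such shares a count of 0 does not set so small a group apart. ORC1, the largest subunit of the recognition complex, read 7.05 and 7.09 with R5020 and 6.50 and 6.57 with vehicle in PR-A K388R cells, a difference of 0.53 ± 0.11 (SE) at an adjusted p of 0.060. The WT PR-A arrays read 6.63 and 6.69 with R5020 and 6.78 and 6.58 with vehicle, which overlap. ORC2, ORC4 and ORC5 had R5020 changes between -0.0046 and 0.075 in both lines, on the probe sets that stand for them. The dimmer ORC4 probe set had lower means with R5020 in both lines, on arrays that overlapped. They were 5.87 against 5.96 with vehicle in PR-A K388R cells and 6.48 against 6.69 in WT PR-A cells. CDC6, which brings MCM to the recognition complex, read 8.73 and 8.90 with R5020 and 8.61 and 8.71 with vehicle in PR-A K388R cells, and 8.40 and 8.52 with R5020 and 8.88 and 8.57 with vehicle in WT PR-A cells.

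The 4 measured MCM helicase subunits had R5020 changes of 0.02 to 0.34 in PR-A K388R cells and -0.40 to -0.20 in WT PR-A cells. Of these 4, 0 passed, which does not set so small a group apart from all genes. MCM3 had the most negative change of the 37 genes in WT PR-A cells. It read 9.87 and 10.16 with R5020 there, against 10.49 and 10.35 with vehicle, a change of -0.40 ± 0.13 (SE) with an adjusted p of 0.11. MCM5 read 7.77 and 7.78 with R5020 in PR-A K388R cells, against 7.46 and 7.41 with vehicle, and 7.07 and 7.50 with R5020 in WT PR-A cells, against 7.58 and 7.39 with vehicle. The WT PR-A R5020 arrays of MCM5 thus lay on either side of the vehicle arrays' lower value.

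Of the 4 origin firing genes, all had positive changes in PR-A K388R cells (0.22 to 0.67), with CDC45 past the test, and negative ones in WT PR-A cells (-0.37 to -0.03). CDC7, the kinase that phosphorylates MCM at origins, read 7.70 and 7.88 with R5020 and 7.51 and 7.42 with vehicle in PR-A K388R cells. In WT PR-A cells it read 7.46 and 7.48 with R5020 and 7.84 and 7.74 with vehicle. Its arrays did not overlap in either line, with changes of 0.33 ± 0.11 (SE; adjusted p = 0.29) and -0.32 ± 0.11 (SE; adjusted p = 0.14). GINS1, a subunit of the GINS complex of the active helicase, read 10.16 and 10.29 with R5020 and 9.95 and 10.06 with vehicle in PR-A K388R cells, and 9.57 and 9.69 with R5020 and 10.07 and 9.92 with vehicle in WT PR-A cells. CDC45 read 7.49 and 7.52 with R5020 and 7.63 and 7.43 with vehicle in WT PR-A cells, which overlap.

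The 7 primase and polymerase genes differed in sign among themselves. In PR-A K388R cells 6 of the 7 changes were positive, and 5 of these had an unadjusted p under 0.05 (7.41% of all genes) while 0 passed the test. PRIM1, the catalytic primase subunit that makes the RNA primer, read 10.62 and 10.48 with R5020 and 9.84 and 10.05 with vehicle, a change of 0.61 ± 0.13 (SE) with an adjusted p of 0.053. It passed without the replicate block (adjusted p = 0.020) and with the dimmest 40% of probe sets left out (0.044). PRIM2, the other primase subunit, had the opposite sign, with 6.75 and 6.82 with R5020 and 6.98 and 6.78 with vehicle, the 1 negative change of the 37 genes in that line (-0.10 ± 0.12, SE). In WT PR-A cells 4 of the 7 changes were positive, with a median of 0.03, where 6 of all 37 were positive. POLE2, an accessory subunit of polymerase epsilon, read 9.10 and 9.13 with R5020 and 8.98 and 8.80 with vehicle there. It was the largest positive change of the 37 in that line (0.23 ± 0.12, SE; adjusted p = 0.39).

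The 5 measured clamp and clamp loader genes had R5020 changes of 0.14 to 0.32 in PR-A K388R cells. In WT PR-A cells the changes were -0.33 to -0.13. Of these 5, 0 passed, which again does not set so small a group apart from all genes. PCNA read 12.20 and 12.25 with R5020 and 12.12 and 11.91 with vehicle in PR-A K388R cells, and 11.71 and 11.97 with R5020 and 12.02 and 11.99 with vehicle in WT PR-A cells. RFC5, a small clamp loader subunit, read 8.826 and 8.996 with R5020 and 9.33 and 9.15 with vehicle in WT PR-A cells (-0.33 ± 0.12, SE; adjusted p = 0.15). Its 2 probe sets had changes of the same sign in both lines. The 4 single-strand binding and strand joining genes had changes of 0.10 to 0.30 and -0.31 to -0.03 in these lines. LIG1, the ligase that seals the lagging strand, read 7.40 and 7.28 with R5020 and 7.24 and 7.21 with vehicle in PR-A K388R cells, and 6.64 and 7.06 with R5020 and 7.23 and 7.09 with vehicle in WT PR-A cells. Replicate 1 of WT PR-A with R5020 was the low array in PCNA, RFC5 and LIG1.

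All 5 nucleotide synthesis genes had an unadjusted p under 0.05, and a positive value, both for R5020 in PR-A K388R cells and for the difference of the responses, where 7.41% and 7.77% of all genes did. Their changes were 0.36 to 0.90 in PR-A K388R cells and -0.31 to -0.08 in WT PR-A cells, and RRM2 alone passed. TK1, which salvages thymidine, had the widest spread of group means of the 37 genes, 1.13, and the only one of at least 1.0. It read 11.20 and 11.00 with R5020 and 10.63 and 10.51 with vehicle in PR-A K388R cells, 9.81 and 10.13 with R5020 and 10.30 and 10.28 with vehicle in WT PR-A cells. The T47D-Y arrays read 10.11 and 10.14. The second TK1 probe set gave a difference of the responses of 0.87, close to the 0.85 of the first. RRM1, the large subunit of ribonucleotide reductase, read 11.05 and 11.06 with R5020 and 10.64 and 10.68 with vehicle in PR-A K388R cells, against 10.36 and 10.51 with R5020 and 10.71 and 10.52 with vehicle in WT PR-A cells. TYMS, which makes thymidylate from deoxyuridylate, read 11.62 and 11.58 with R5020 and 11.22 and 11.27 with vehicle in PR-A K388R cells. Its R5020 level there lay within the range of the WT PR-A arrays, which read 11.47 and 11.62 with R5020 and 11.64 and 11.64 with vehicle. DTYMK read 9.85 and 9.85 with R5020 and 9.57 and 9.37 with vehicle in PR-A K388R cells. Of its 5 probe sets, the dimmest, at 3.03 to 3.65 over the 10 arrays, had the opposite sign in both lines, and another did so in WT PR-A cells.

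CHAF1A and CHAF1B, subunits of the factor that places histones behind the fork, had R5020 changes of 0.41 ± 0.11 and 0.26 ± 0.14 (SE) in PR-A K388R cells, and -0.07 ± 0.11 and -0.02 ± 0.14 (SE) in WT PR-A cells. None passed. E2F1 read 8.02 and 8.31 with R5020 and 8.28 and 8.29 with vehicle in WT PR-A cells, a range that holds both vehicle arrays.

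**Figure D3:**
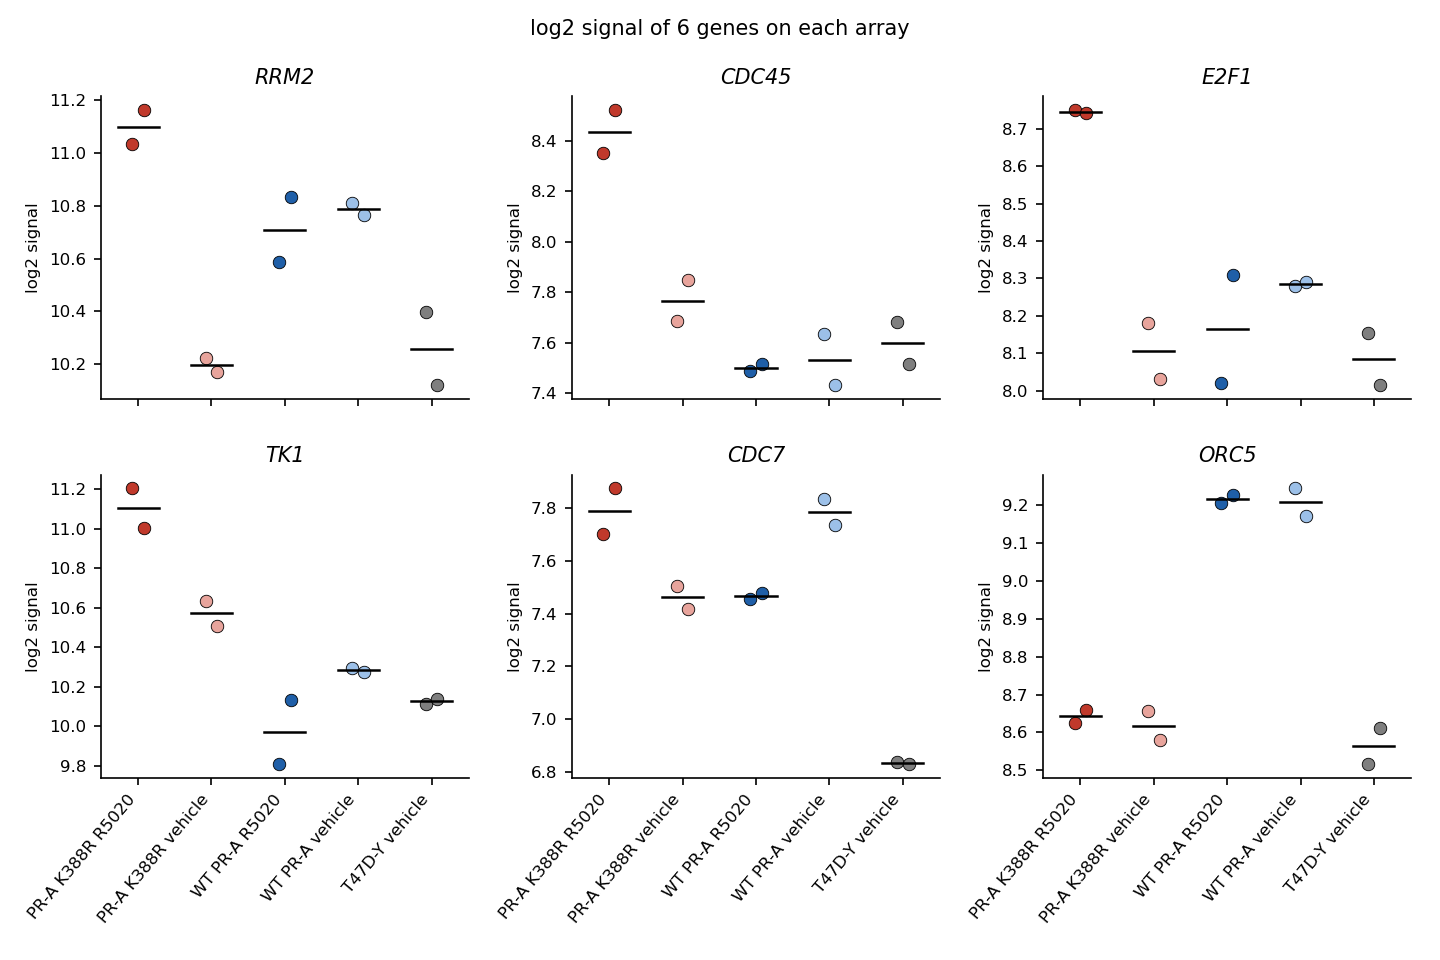
log2 signal of RRM2, CDC45, E2F1, TK1, CDC7 and ORC5 on each array (points) with the group mean (line), by group; vertical axes do not start at 0. RRM2, CDC45, E2F1 and TK1 are highest in R5020-treated PR-A K388R cells, CDC7 is lowest in T47D-Y cells, and ORC5 is high in both WT PR-A groups, at 9.17 to 9.24.

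Without hormone, T47D-Y cells had less CDC7 than either line made from them, and less ORC5 than the WT PR-A line. CDC7 read 7.51 and 7.42 in PR-A K388R cells, against 6.84 and 6.83 in T47D-Y cells. The WT PR-A arrays read 7.84 and 7.74, so that both lines lay above the parent. It was 1.55-fold higher in PR-A K388R (0.63 ± 0.11, SE; adjusted p = 0.015) and 1.94-fold higher in WT PR-A cells (0.95 ± 0.11, SE; adjusted p = 0.00061). The 2 comparisons share the T47D-Y arrays. ORC5, a subunit of the recognition complex, read 9.24 and 9.17 in WT PR-A cells, against 8.52 and 8.61 in T47D-Y cells, a 1.56-fold difference (0.64 ± 0.11, SE; adjusted p = 0.0043), and 8.66 and 8.58 in PR-A K388R cells. These were 1 of 37 genes higher in PR-A K388R than in T47D-Y cells (1.35% of all genes) and 0 lower (2.48%). In the WT PR-A line 2 of 37 were higher than in the parent (4.48%) and 0 lower (4.03%). Such counts were close to the shares of all genes and do not set the 37 apart. The median of the 37 was 0.02 for PR-A K388R and 0.06 for WT PR-A against T47D-Y. The CDC7 call in PR-A K388R cells was lost at adjusted p of 0.068 to 0.12 without any of the 4 arrays compared and at a log2 difference of 0.56 with arrays centred on their medians. The ORC5 call was lost without WT PR-A vehicle replicate 1 (adjusted p = 0.054) or T47D-Y replicate 1, where the difference was 0.58, just under the fold minimum.

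Between the vehicle-treated lines ORC5 and RRM2 were lower in PR-A K388R than in WT PR-A cells. They were 2 of 37 genes, where 5.63% of all genes were lower, and 0 were higher, where 3.49% were. These counts were close to the shares of all genes and do not set the 37 apart. ORC5 differed by more than the fold minimum (-0.59 ± 0.11, SE; adjusted p = 0.0067). RRM2 read 10.23 and 10.17 in PR-A K388R cells, against 10.81 and 10.77 in WT PR-A cells (-0.59 ± 0.14, SE; adjusted p = 0.022). The same 2 PR-A K388R vehicle arrays are the base of the RRM2 response to R5020. They lay between the T47D-Y arrays, which read 10.40 and 10.12 for RRM2. WT PR-A vehicle cells exceeded T47D-Y cells in RRM2 by 0.53 (limma adjusted p = 0.037), which missed the fold minimum. The R5020 level of RRM2 in PR-A K388R cells, 11.03 and 11.16, lay above the WT PR-A vehicle arrays too. This RRM2 call was lost without any of the 4 arrays compared (adjusted p 0.082 to 0.15) and with unmoderated contrasts (0.13), and that of ORC5 without WT PR-A vehicle replicate 1 (0.076) or PR-A K388R vehicle replicate 2 (0.064). CHAF1B was higher in PR-A K388R, with 7.84 and 7.72 against 7.27 and 7.22 in WT PR-A cells, at an adjusted p of 0.034 but under the fold minimum (0.53 ± 0.14, SE). With quantile normalization ORC5 and RRM2 fell under the fold minimum (-0.52 each), CHAF1B passed it (0.65), and the median of the 37 turned to 0.03, against -0.06 as reported. A second, dimmer ORC4 probe set was lower in PR-A K388R cells (-0.73 ± 0.19, SE; adjusted p = 0.034), while the brighter one that stands for the gene differed by -0.06.

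Lists of related genes were set beside the 37. Of 43 other fork and origin genes listed, 16 were measured. Of these 16, 0 passed the test for R5020 in either line (0.416% to 4.40% of all genes per direction). Their median change was 0.16 in PR-A K388R and -0.16 in WT PR-A cells, and 13 of 16 differences of the responses were positive. The negative ones were MCM9 (-0.48), GINS4 (-0.02) and ASF1A (-0.01). Some of the 16 were dim, unlike the 37. MCM9 read 2.58 to 3.31 and CLSPN 2.87 to 3.69, around the lower quartiles of 3.28 to 3.39. GINS4 read 3.68 to 4.53 and MTBP 3.83 to 4.49, under the array medians. TIMELESS, which stabilises the fork, read 10.11 and 10.14 with R5020 and 9.94 and 9.99 with vehicle in PR-A K388R cells, and 9.44 and 9.41 with R5020 and 10.00 and 9.95 with vehicle in WT PR-A cells. Its change in WT PR-A cells, -0.55 ± 0.10 (SE), had an adjusted p of 0.0085 and missed the fold minimum, and it was named after its values were seen. DBF4, the activating subunit of the CDC7 kinase, read 9.49 and 9.27 in vehicle-treated WT PR-A cells, against 8.60 and 8.61 in T47D-Y cells, 1.71-fold higher (adjusted p = 0.0030). It was 1.63-fold lower in PR-A K388R cells, at 8.71 and 8.65, than in WT PR-A cells (adjusted p = 0.0052), a call that was lost without WT PR-A vehicle replicate 1 (0.073).

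Of 19 other nucleotide synthesis genes measured, of 36 listed, 0 passed for R5020 in PR-A K388R cells and 1, which was higher, in WT PR-A cells (4.40% of all genes were higher). IMPDH1, which makes xanthosine monophosphate on the way to guanine nucleotides, read 9.20 and 9.41 with R5020 and 8.33 and 8.20 with vehicle in WT PR-A cells. It rose there 2.07-fold (1.05 ± 0.13, SE; adjusted p = 0.00067). In PR-A K388R cells it read 8.67 and 8.77 with R5020 and 8.65 and 8.46 with vehicle, and the difference of the responses, -0.88 ± 0.18 (SE), passed with an adjusted p of 0.047, the opposite direction to RRM2. Without hormone DCK, the kinase that salvages deoxycytidine, was 1.55-fold higher in the WT PR-A line than in the parent (adjusted p = 0.021). DCTD, the deoxycytidylate deaminase, was 1.73-fold lower in PR-A K388R than in WT PR-A cells (adjusted p = 0.0052), and its second probe set was lower too. The DCK call was lost without either WT PR-A vehicle array (0.095 and 0.16) or T47D-Y replicate 2 (0.21), and that of DCTD without WT PR-A vehicle replicate 1 (0.060) or PR-A K388R vehicle replicate 1 (0.053). The IMPDH1 rise in WT PR-A cells kept its call without any array, whereas its difference of the responses lost it without each of the 10 (0.060 to 0.18). Of the dimmer probe sets of SAMHD1, which degrades deoxynucleotides, one passed for R5020 in WT PR-A cells (-0.61, adjusted p = 0.0498). It read 3.20 to 4.09 over the 10 arrays, all under the array medians of 4.59 to 4.69. Another passed for that line against T47D-Y (1.73, adjusted p = 0.034), while the brightest one passed neither.

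Of 17 E2F and G1/S regulators measured, of 28 listed, 2 were higher with R5020 in PR-A K388R cells (1.25% of all genes) and 1 in WT PR-A cells (4.40%). In PR-A K388R cells CCND3, the G1 cyclin D3, read 10.84 and 11.04 with R5020 and 10.19 and 10.16 with vehicle, a 1.70-fold rise (adjusted p = 0.016). MYBL2, a MYB family transcription factor that works at cell cycle promoters, read 10.23 and 9.84 with R5020 and 9.23 and 9.27 with vehicle, a 1.72-fold rise (adjusted p = 0.033). The gene that rose in WT PR-A cells was MYC, at 8.06 and 8.01 with R5020 and 7.21 and 7.04 with vehicle, 1.88-fold (adjusted p = 0.020). In none of these 3 did the difference of the responses pass. The calls of CCND3 and MYC were lost without any of the 4 arrays they compare (0.059 to 0.15, and 0.080 to 0.16), and MYBL2 was called in 7 of 15 alternatives. Without hormone E2F3 and the CDK inhibitor CDKN1A were 1.61-fold and 1.87-fold higher in the WT PR-A line than in the parent (adjusted p = 0.0042 and 0.011), and E2F3 was 1.54-fold lower in PR-A K388R than in WT PR-A cells (adjusted p = 0.0071). A second probe set of TFDP2, an E2F partner, was lower in PR-A K388R than in WT PR-A cells too (-0.92, adjusted p = 0.0025), and the one that stands for the gene did not pass. Leaving out 1 array ended the call of E2F3 against T47D-Y (T47D-Y replicate 2, 0.055), that of E2F3 between the PR-A lines (either WT PR-A vehicle array, or PR-A K388R vehicle replicate 2, 0.053 to 0.067) and that of CDKN1A (WT PR-A vehicle replicate 2, or either T47D-Y array, 0.074 to 0.11).

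In PR-A K388R cells all 16 markers of mitosis that were measured, of 26 listed, had a positive R5020 change with a median of 0.45, and their R5020 arrays lay above their vehicle arrays in 16 of 16 (24.6% of all genes). In WT PR-A cells 5 of the 16 were positive, with a median of -0.12. PLK1, a mitotic kinase, passed, with 9.10 and 9.28 with R5020 and 8.43 and 8.54 with vehicle, 1.64-fold (adjusted p = 0.025), a call that was lost without any of these 4 arrays (0.091 to 0.21). A second CDK1 probe set passed as well, both in PR-A K388R cells (1.73-fold, adjusted p = 0.0084) and for the difference of the responses (0.83 ± 0.15, SE; adjusted p = 0.034), while the brighter one that stands for the gene did not. A second BIRC5 probe set was also higher with R5020 in PR-A K388R cells (0.73, adjusted p = 0.028). Without hormone it was lower in PR-A K388R than in WT PR-A cells (-0.65, adjusted p = 0.011) and higher in the WT PR-A line than in the parent (0.64, adjusted p = 0.012), and the BIRC5 probe set that stands for the gene passed none of these tests. The difference of the responses was positive in 16 of 16 (54.2% of all genes) with a median of 0.53, close to the 0.48 of the replication genes. By the test 0 passed, where 0.719% of all genes were higher and 1.16% lower. The mean of these markers was 10.13 and 10.21 with R5020 and 9.69 and 9.77 with vehicle in PR-A K388R cells, 9.80 and 9.85 with R5020 and 9.97 and 9.86 with vehicle in WT PR-A cells. T47D-Y cells had means of 10.04 and 9.95. The vehicle arrays of PR-A K388R cells were thus the lowest for these markers. Against T47D-Y 14 of 16 were negative (median -0.23), where 40.9% of all genes were. Against WT PR-A cells 15 of 16 were negative (median -0.19), where 42.1% of all genes were. The 37 genes had 18 and 21 negative. The part of cell division in the values of the 37 genes was not tested. Without hormone AURKA, another mitotic kinase, was 1.65-fold lower in PR-A K388R than in T47D-Y cells (adjusted p = 0.032), a call that 5 of the 10 left-out arrays ended (0.052 to 0.27).

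**Figure D4:**
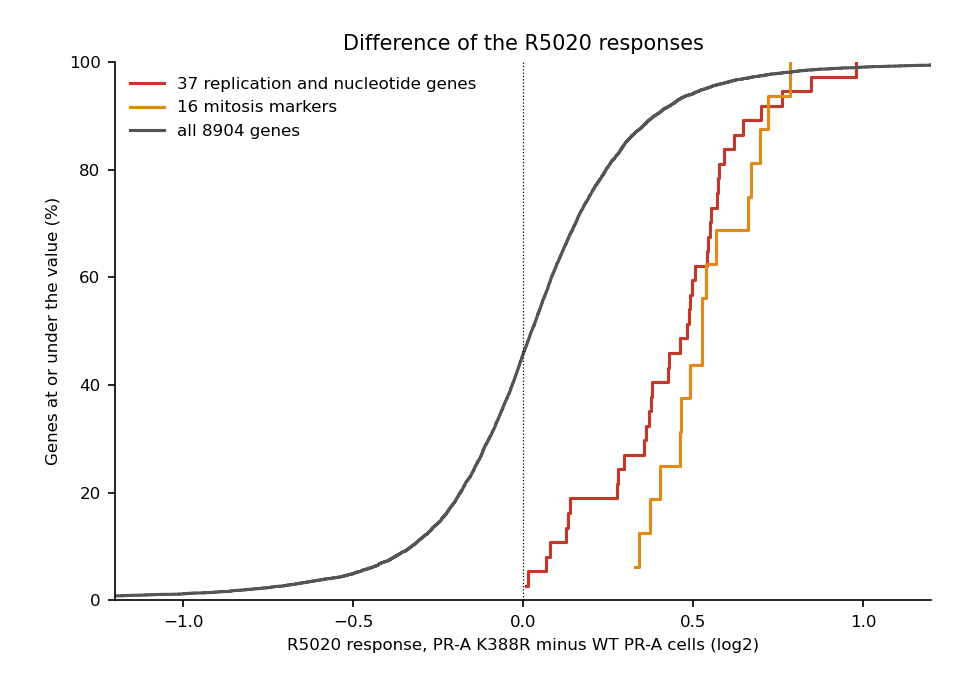
Cumulative share of genes (vertical axis, percent) at or under each difference of the R5020 responses, PR-A K388R minus WT PR-A (horizontal axis, log2), for the 37 replication and nucleotide genes, the 16 mitosis markers and all 8904 genes. The curves of the 2 lists start to the right of 0 and have medians of 0.48 and 0.53, against 0.02 for all genes.

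**Figure D5:**
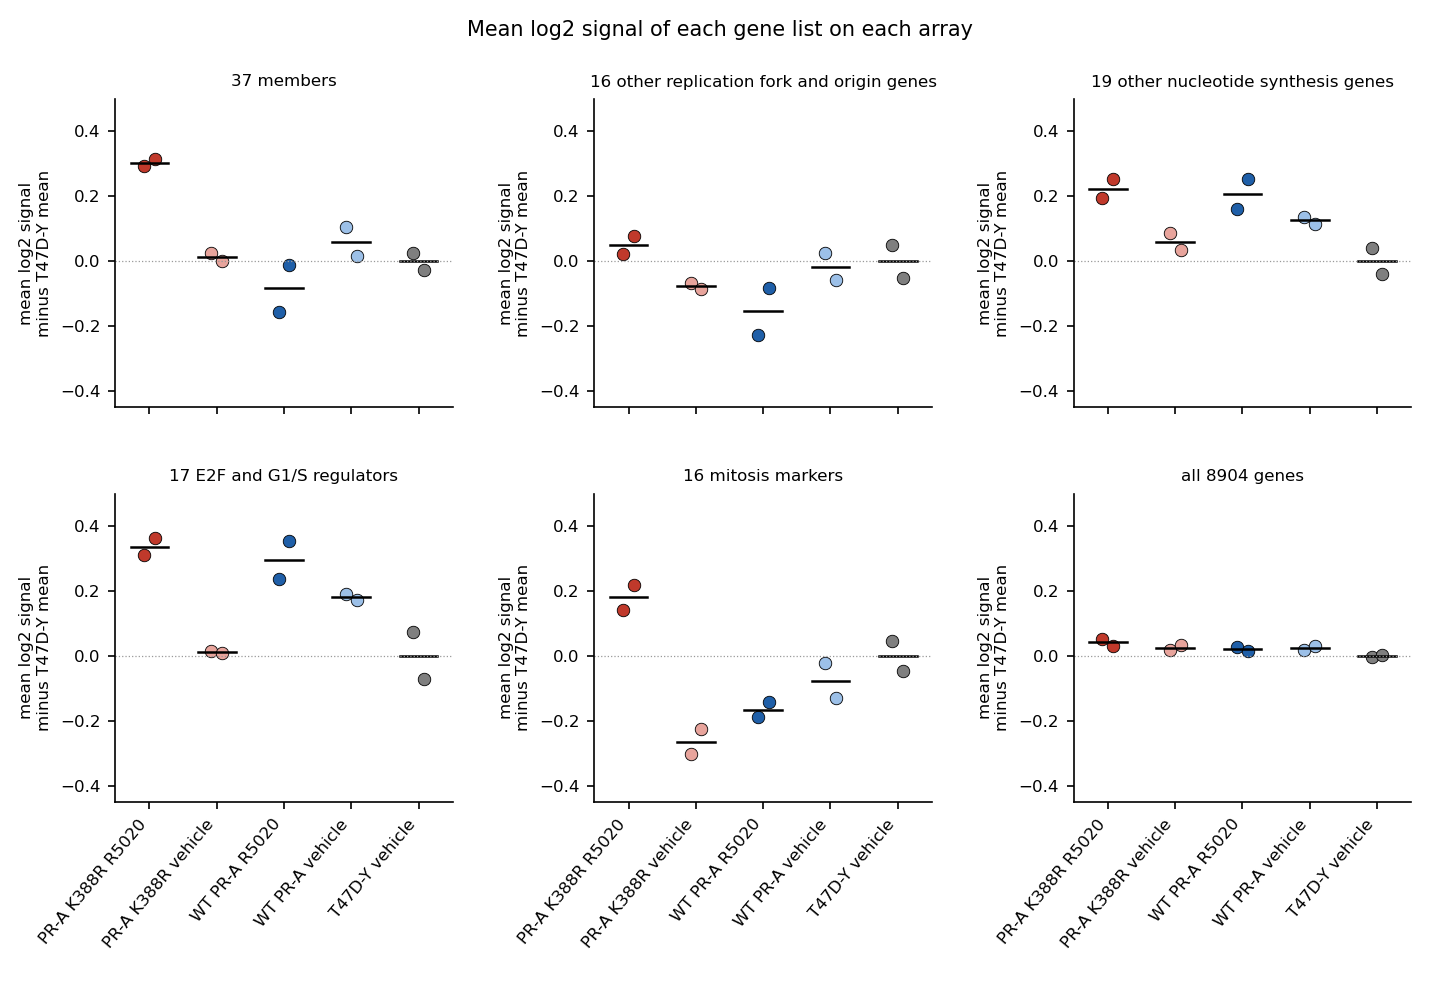
Mean log2 signal of each list on each array (points) and its group mean (line), minus the mean of the 2 T47D-Y arrays, for the 37 genes, the 4 related lists and all genes. Every panel, that of all genes included, has its highest group mean in R5020-treated PR-A K388R cells, and the other nucleotide synthesis genes and the E2F and G1/S regulators lie above their vehicle arrays in both R5020-treated lines.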

How the data were processed

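The measurements were Affymetrix U133 Plus 2 signals of 10 arrays in 5 groups, taken from the labels. The deposited values are log2 signals, which the authors had normalized with Partek Genomics Suite, by a method, and with a background correction, not given in the sources used here. The table used here holds 16376 probe sets, those whose identifiers sort first, and holds no control probe sets by which RNA quality could be tested. The culture medium and RNA kit differ between sources: DMEM, charcoal-stripped serum and PicoPure in the labels; MEM, FBS and RNAeasy in the study's methods. The number of arrays limits the precision.

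For each probe set the replicate 1 and replicate 2 arrays had equal sums over the 5 groups (largest difference 3e-04), so the replicate number had been removed before. All arrays were therefore fitted together by limma 3.58.1 in R 4.3.3, in a model of the 5 group means that held the replicate number as a block (4 residual and 5.62 prior degrees of freedom); the removal makes a check of the pairing void. The Benjamini-Hochberg adjustment ran over every probe set of the table, and a call needed both limits of the study's methods, 0.05 for the adjusted p and 1.5 for the fold. A gene is its probe set with the highest mean. Of the probe sets, 12547 had 1 symbol in the platform annotation, 457 several and 3372 none listed, and 12528 of those with 1 symbol had a gene in the GRCh38.p14 table.

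The members, the 4 related lists and the tests were chosen with earlier results of these data known. By the rule for named genes every member is accounted for, with up to 5 called members per direction and up to 4 called genes per related list for each comparison. The scripts were tested on simulated data. Alternatives were no replicate block, unmoderated analysis of variance contrasts, quantile normalization, centring each array on its median, dropping the dimmest 40% of probe sets, no fold minimum, the probe set with the largest variance, and leaving out each array, where the lone array of the group takes its spread from the rest. Figures came from Python 3.11.15 and matplotlib 3.10.9.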

Additional observations from a re-analysis of the deposited data

Results flagged for a closer look

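The R5020 response differed between the lines, by the test of the difference itself, for RRM2 among the 37 genes and for IMPDH1 among the related lists. The RRM2 response in PR-A K388R cells exceeded that in WT PR-A cells by 0.98 on the log2 scale (limma adjusted p = 0.043). That of IMPDH1 differed by -0.88 (adjusted p = 0.047). RRM2 kept its call in 6 of 15 alternatives and IMPDH1 in 3 of 15. Groups of 2 arrays are too small for a test of outlying arrays.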

How the results depend on the processing

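Every called gene kept its direction under every alternative that was run. CDC7 in WT PR-A against T47D-Y cells and IMPDH1 with R5020 in WT PR-A cells kept their calls in all 15, RRM2 with R5020 in PR-A K388R cells in 10, E2F1 in 4 and CDC45 in 3. Without the replicate block 5 of the 37 genes were higher in the difference of the responses, against 1 as reported, and the block changed no other count by over 1.5 times. Unmoderated analysis of variance contrasts called 0 for R5020 in PR-A K388R cells, 0 for the difference of the responses, 0 higher in PR-A K388R than in T47D-Y cells and 1 lower in PR-A K388R than in WT PR-A cells. With quantile normalization 1 was higher with R5020 in PR-A K388R cells, and 1 was higher and 0 lower in PR-A K388R than in WT PR-A cells. The medians were then 0.072 for PR-A K388R against T47D-Y; against WT PR-A it was 0.029. With arrays centred on their medians 0 were higher in the difference of the responses and 0 in PR-A K388R than in T47D-Y cells, with medians against T47D-Y of -0.053 for the PR-A K388R line and 0.040 for the WT PR-A line. With no fold minimum 1 was lower in WT PR-A cells, against T47D-Y, and 1 higher in PR-A K388R than in WT PR-A cells. With the probe set of largest variance the median for PR-A K388R against T47D-Y was -0.0115. The cause of these shifts was not tested.

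With each array left out in turn, the number of genes higher with R5020 in PR-A K388R cells was 0 to 2 and the median 0.23 to 0.30. It was 0 without any of the 4 PR-A K388R arrays and 1 without either WT PR-A vehicle array or either T47D-Y array. For the difference of the responses the number was 0 to 2 and the median 0.35 to 0.55, with 2 (RRM2 and TK1) without WT PR-A R5020 replicate 2. In WT PR-A cells the number was 0 throughout and the median -0.25 to -0.05. WT PR-A against T47D-Y gave 1 to 2 higher, 0 to 1 lower and a median of -0.023 to 0.104; the 1 lower gene, POLA1, appeared without WT PR-A vehicle replicate 1. PR-A K388R against T47D-Y gave 0 to 1 higher and a median of -0.058 to 0.0445, and PR-A K388R against WT PR-A gave 0 to 2 lower and a median of -0.091 to 0.037. Signs of the responses held for most genes: across all alternatives 33 to 36 of the 37 were positive in PR-A K388R cells, and 35 to 37 in the difference.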
